A study of Homo sapiens with 14 samples.

Results

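The promoter peaks constant in both lines were regions of accessible chromatin near a transcription start site that had been called in every library of 2 human multiple myeloma (MM) cell lines. They were taken from the reference peaks of MM.1S as those on chromosomes 1 to 22 that were narrower than 1500 bp, were called in all 9 MM.1S libraries, overlapped by at least 1 bp a reference peak called in all 5 RPMI8226 libraries, and lay within 2500 bp of an annotated start site. This gave 12852 of the 72802 MM.1S reference peaks (17.7%), and their counterparts were sought among 79969 RPMI8226 peaks. The number of libraries was read from an unnamed column of whole numbers in each list. The regions were thus chosen by the number of libraries with a call, by sharing between the lines, by width and by nearness to a start site, and these values are given below as a description only.

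The libraries were made by Omni-ATAC, which uses a transposase to cut and tag open chromatin. Both lines are established MM lines, derived from malignant plasma cells. Cells were grown for 48 h alone (MONO) or with HS5, a bone marrow stromal line, and were then collected either from the upper transwell (TSW), exposed to soluble factors, or from the lower chamber (CO), in contact with the stroma. MM.1S contributed 3 MONO, 3 TSW and 3 CO libraries, and RPMI8226 contributed 1 MONO, 2 TSW and 2 CO libraries. MM cells were sorted as CD90-CD38+ before library preparation, and the study noted a small share of HS5 cells in those from the lower chamber. Each line had 1 deposited list that pools its conditions and holds no value for a single library, so conditions cannot be compared at these peaks. The study states the sequencing depth of each library, but the lists do not carry it and it was not used here.

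A promoter is the stretch of DNA around a start site where general transcription factors and RNA polymerase assemble. Many human promoters lie in CpG islands, GC-rich stretches that keep the CpG dinucleotides lost from most of the genome, and genes used by all cells commonly start there. Promoters of genes restricted to a few cell types more often lack an island and carry a TATA box. Words recognised by ETS factors, NRF1, YY1 and SP/KLF factors are known parts of island promoters.

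The following promoters are examples of sequence under a constant peak, taken from broadly used complexes. Peaks that held no start, 24.7% of the constant promoter peaks, are not among them. Each promoter runs from 250 bases before to 30 bases after the start site, 5′ to 3′ on the strand of the gene, as given by RefSeq on GRCh38.p14. Capitals mark words found on either strand, which are the TATA box (TATAAA), the CCAAT box (CCAAT), the GC box of SP/KLF factors (GGGCGG), the ETS word (CCGGAAG), the CREB/ATF word (TGACGTCA) and the E-box (CACGTG). The genes encode subunits of the cytosolic ribosome (RPS9), the proteasome (PSMD1) and the mitochondrial ribosome (MRPL37), a splicing factor (PRPF18), a replication initiation factor (MCM10) and a subunit of the general factor TFIID (TAF11). Among the genes of each group with a RefSeq promoter sequence, it was the one whose start lay closest to the midpoint of its constant peak.
RPS9, chr19:54200608-54200887 (+ strand): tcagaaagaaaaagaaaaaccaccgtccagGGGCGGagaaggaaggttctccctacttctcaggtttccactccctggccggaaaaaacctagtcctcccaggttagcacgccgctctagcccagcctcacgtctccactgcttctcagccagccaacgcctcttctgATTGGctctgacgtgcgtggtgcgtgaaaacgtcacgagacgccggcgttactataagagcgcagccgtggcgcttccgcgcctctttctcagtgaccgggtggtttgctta
PSMD1, chr2:231056617-231056896 (+ strand): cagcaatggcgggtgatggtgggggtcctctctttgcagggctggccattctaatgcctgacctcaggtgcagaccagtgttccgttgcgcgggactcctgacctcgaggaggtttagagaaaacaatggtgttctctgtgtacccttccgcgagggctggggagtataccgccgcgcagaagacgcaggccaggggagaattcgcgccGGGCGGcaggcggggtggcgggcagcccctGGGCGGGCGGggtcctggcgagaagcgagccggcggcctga
PRPF18, chr10:13586715-13586994 (+ strand): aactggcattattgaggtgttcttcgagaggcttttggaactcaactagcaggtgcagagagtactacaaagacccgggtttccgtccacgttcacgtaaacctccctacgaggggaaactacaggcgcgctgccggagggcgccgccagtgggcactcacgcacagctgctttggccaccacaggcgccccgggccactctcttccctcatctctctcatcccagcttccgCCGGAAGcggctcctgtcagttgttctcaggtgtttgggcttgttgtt
MRPL37, chr1:54199917-54200196 (+ strand): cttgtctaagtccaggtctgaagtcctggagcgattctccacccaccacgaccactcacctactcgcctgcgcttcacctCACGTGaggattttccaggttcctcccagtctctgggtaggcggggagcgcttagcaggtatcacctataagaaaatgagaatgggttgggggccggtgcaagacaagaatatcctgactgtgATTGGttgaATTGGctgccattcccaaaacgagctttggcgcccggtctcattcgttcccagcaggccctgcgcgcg
MCM10, chr10:13161308-13161587 (+ strand): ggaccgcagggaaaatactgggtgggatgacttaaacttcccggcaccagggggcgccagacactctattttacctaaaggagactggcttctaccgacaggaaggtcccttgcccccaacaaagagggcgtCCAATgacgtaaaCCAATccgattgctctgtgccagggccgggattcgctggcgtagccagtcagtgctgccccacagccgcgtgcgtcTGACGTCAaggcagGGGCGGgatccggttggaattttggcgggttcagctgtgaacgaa
TAF11, chr6:34888013-34888292 (- strand): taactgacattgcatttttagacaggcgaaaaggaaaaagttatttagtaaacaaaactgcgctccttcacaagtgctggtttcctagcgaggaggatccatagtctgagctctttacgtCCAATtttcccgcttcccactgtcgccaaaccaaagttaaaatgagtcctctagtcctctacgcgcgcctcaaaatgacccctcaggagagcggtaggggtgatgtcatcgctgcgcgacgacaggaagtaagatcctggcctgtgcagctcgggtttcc
The GC content of these 280 bases ran from 49.3% in TAF11 to 66.1% in PSMD1, and the observed/expected CpG ratio (the number of CpG divided by that expected from the numbers of C and G) from 0.683 in MRPL37 to 0.931 in RPS9. No TATAAA was found in any of the 6. PSMD1 held 3 GC boxes, 2 of which share bases.

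For contrast, the next 3 promoters belong to genes with no promoter peak in either list. They are the first in alphabetical order among olfactory receptors (OR10A2), keratin-associated proteins of the hair shaft (KRTAP1-1) and taste receptors (TAS1R2).
OR10A2, chr11:6862807-6863086 (+ strand): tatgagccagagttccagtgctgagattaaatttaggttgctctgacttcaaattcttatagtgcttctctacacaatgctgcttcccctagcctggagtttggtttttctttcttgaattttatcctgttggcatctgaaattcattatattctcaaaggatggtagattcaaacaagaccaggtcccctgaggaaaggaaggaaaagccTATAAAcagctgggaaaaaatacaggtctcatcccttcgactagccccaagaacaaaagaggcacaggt
KRTAP1-1, chr17:41041421-41041700 (- strand): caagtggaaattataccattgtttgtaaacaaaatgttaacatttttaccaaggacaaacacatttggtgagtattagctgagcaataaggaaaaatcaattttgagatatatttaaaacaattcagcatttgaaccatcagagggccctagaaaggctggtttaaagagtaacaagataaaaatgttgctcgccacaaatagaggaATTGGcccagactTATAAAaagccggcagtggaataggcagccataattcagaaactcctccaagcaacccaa
TAS1R2, chr1:18859631-18859910 (- strand): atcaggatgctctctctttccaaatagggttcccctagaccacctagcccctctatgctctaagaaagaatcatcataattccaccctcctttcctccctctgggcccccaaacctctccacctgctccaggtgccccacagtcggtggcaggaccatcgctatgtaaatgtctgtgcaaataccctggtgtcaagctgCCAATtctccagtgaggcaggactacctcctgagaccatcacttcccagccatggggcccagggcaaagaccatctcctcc
They held 1 CpG in OR10A2 and 2 in each of the others, against 15 to 23 in the 6 promoters under constant peaks. OR10A2 and KRTAP1-1 each carried a TATAAA.

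The constant peak of RPS9 covered chr19:54200348-54201364 in MM.1S (1017 bp) and chr19:54200463-54201207 in RPMI8226 (745 bp). That of PSMD1 covered chr2:231056516-231057223 (708 bp) and chr2:231056517-231057207 (691 bp). That of PRPF18 covered chr10:13586597-13587343 (747 bp) and chr10:13586752-13587341 (590 bp). In each case the start site lay 2 to 5 bp from the midpoint of the MM.1S peak.

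Constant promoter peaks were wide and GC-rich. Their median width in MM.1S was 903 bp (95% interval 896 to 910) and their median GC content was 61.1% (60.9 to 61.3). The middle of the distribution, from the lower to the upper quartile, ran from 683 to 1131 bp and from 54.3% to 66.6% GC. The other MM.1S promoter peaks under the width limit, 12860 in number, had a median GC content of 55.2% (54.9 to 55.5) and a median width of 484 bp. Promoter peaks called in all 9 MM.1S libraries but without an RPMI8226 peak (2667) were nearer, with medians of 60.6% and 742 bp. Distal peaks that met the same rule away from start sites (11660) had a median GC content of 48.2% (48.1 to 48.4). Intervals here are distribution-free for medians and Wilson intervals for shares. They cover counting error over peaks or genes only, since peaks are not replicates and each line has 1 list. By the study's figures, a MONO library of MM.1S was much shallower than the others of that line. Its part in which peaks were called in all 9 libraries was not tested.

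The CpG ratio separated the peaks further. Its median was 0.701 in constant promoter peaks (0.696 to 0.705), 0.295 in other promoter peaks and 0.203 in constant distal peaks. In all, 7909 constant promoter peaks (61.5%, 60.7 to 62.4) met the criteria of a CpG island, taken as a width of at least 200 bp, a GC content of at least 50% and a CpG ratio of at least 0.6. The share was 24.2% (23.5 to 24.9) in other promoter peaks and 3.55% (3.23 to 3.90) in constant distal peaks. Among the 1795 constant promoter peaks of 1500 bp or more, which the width limit leaves out, it was 85.6% (83.9 to 87.1).

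**Figure D1:**
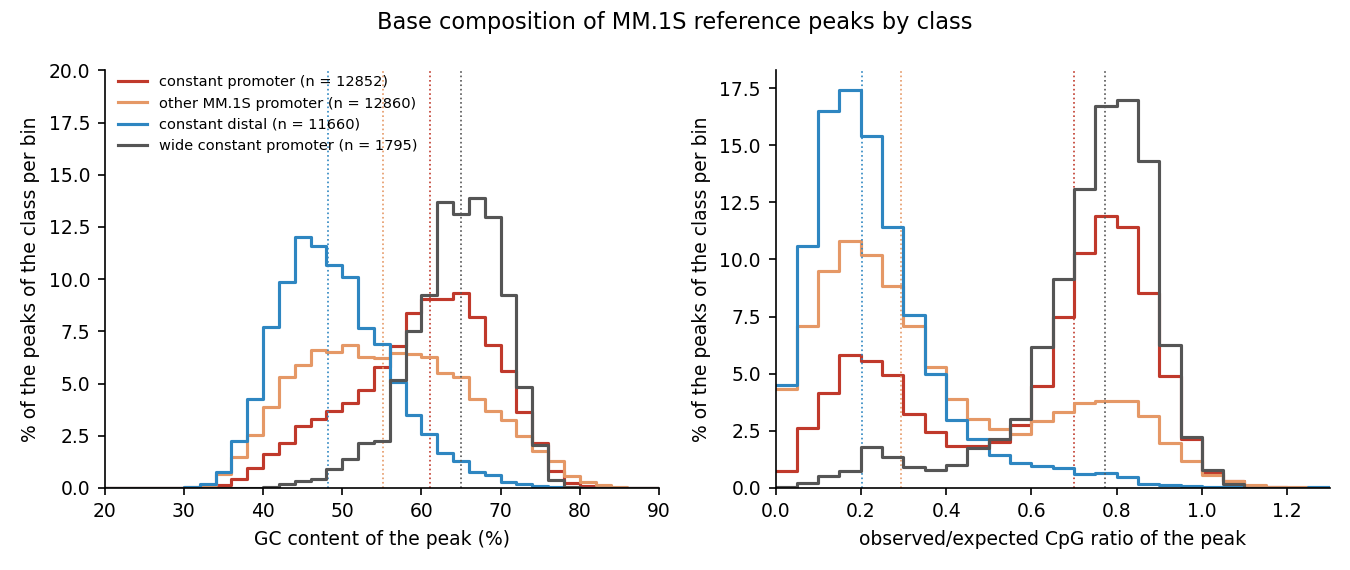
GC content (left, %) and observed/expected CpG ratio (right) of peaks by class, as the percentage of each class per bin, with dotted lines at the medians. Constant promoter peaks peak near a CpG ratio of 0.8 with a smaller group near 0.2, and their median ratio of 0.701 lies above the 0.295 of other promoter peaks and the 0.203 of constant distal peaks.

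Constant promoter peaks also sat on start sites more often. An annotated start lay inside 9680 of them (75.3%, 74.6 to 76.1), compared with 35.4% (34.5 to 36.2) of other promoter peaks. Constant promoter peaks were also wider, and among peaks of like width these shares lay nearer each other. They were 29.9% and 21.8% from 200 to 500 bp and 57.9% and 41.2% from 500 to 800 bp. From 800 to 1100 bp they were 86.9% and 63.9%, and from 1100 to 1500 bp 93.6% and 79.0%. Start sites of 2 genes on opposite strands, pointing apart and at most 1000 bp from each other, were found at 3061 constant promoter peaks (23.8%, 23.1 to 24.6). The share was 8.65% (8.17 to 9.15) in other promoter peaks. With start sites of protein-coding transcripts only, the share in constant promoter peaks was 11.0%. A start site of a protein-coding gene lay within the window of 10609 (82.5%, 81.9 to 83.2), compared with 68.5% (67.7 to 69.3). Median GC, median width and the island share were each higher in constant than in other promoter peaks on 22 of 22 autosomes. So were the shares with a start inside, with divergent starts of all transcripts and with a coding start. Width and nearness to a start were values of the rule, so the counts for width and for a start inside are a description only.

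Width and composition moved together. Between 200 and 500 bp wide, the share meeting the island criteria was 15.0% (13.0 to 17.2) of 1094 constant promoter peaks and 14.2% (13.3 to 15.0) of 6400 others, and the median GC was 50.5% against 52.5%. From 500 to 800 bp the shares were 40.1% and 26.5%, and from 800 to 1100 bp they were 74.3% and 49.1%. From 1100 to 1500 bp they were 83.1% (81.8 to 84.3) and 61.7% (58.0 to 65.3). The difference in island share was thus within the intervals in the narrowest bin and outside them in the other 3.

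Distance from the start site divided the constant promoter peaks themselves. The midpoint lay within 100 bp of a start in 5926 (46.1%), and 82.0% (81.0 to 82.9) of these met the island criteria. It lay 1000 bp or more away in 2204 (17.1%), with a median GC of 51.6% and an island share of 8.48% (7.39 to 9.72). The 9680 peaks that held a start had a median width of 982 bp and a median GC of 63.1%. The 3172 that held none (24.7%) had a median width of 633 bp, a median GC of 52.5% and an island share of 11.8% (10.7 to 13.0), close to the 10.6% (10.0 to 11.3) of other promoter peaks that held none.

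**Figure D2:**
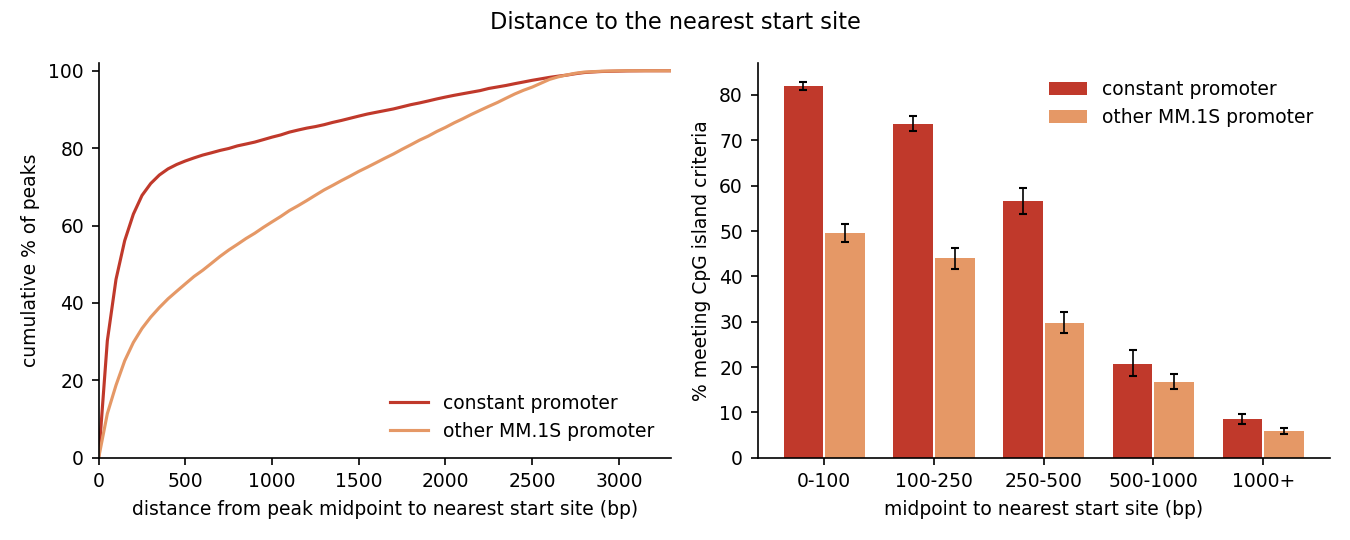
Left, cumulative percentage of promoter peaks by distance (bp) from the peak midpoint to the nearest start site. Right, percentage meeting the CpG island criteria in bins of that distance, with 95% Wilson intervals. The island share of constant promoter peaks falls from 82.0% within 100 bp to 8.48% at 1000 bp or more, while in other promoter peaks it falls from 49.6% to 5.96%.

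The peaks covered more bases in MM.1S than in RPMI8226. The median width of the RPMI8226 partner was 652 bp (646 to 659), and in 11500 pairs (89.5%) the MM.1S peak exceeded it. The midpoints lay a median of 52.5 bp apart. The overlap took a median of 78.3% of the MM.1S peak and 100% of the RPMI8226 peak, and in 9161 pairs (71.3%) the RPMI8226 peak lay wholly inside. A single partner was found for 12505 peaks and 2 or more for 347, for which the first by position was used. The lines also differed in the number of libraries, 9 in MM.1S and 5 in RPMI8226. Sequencing depth, which the study states for each library, varied as well. The part of either in the widths was not tested.

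**Figure D3:**
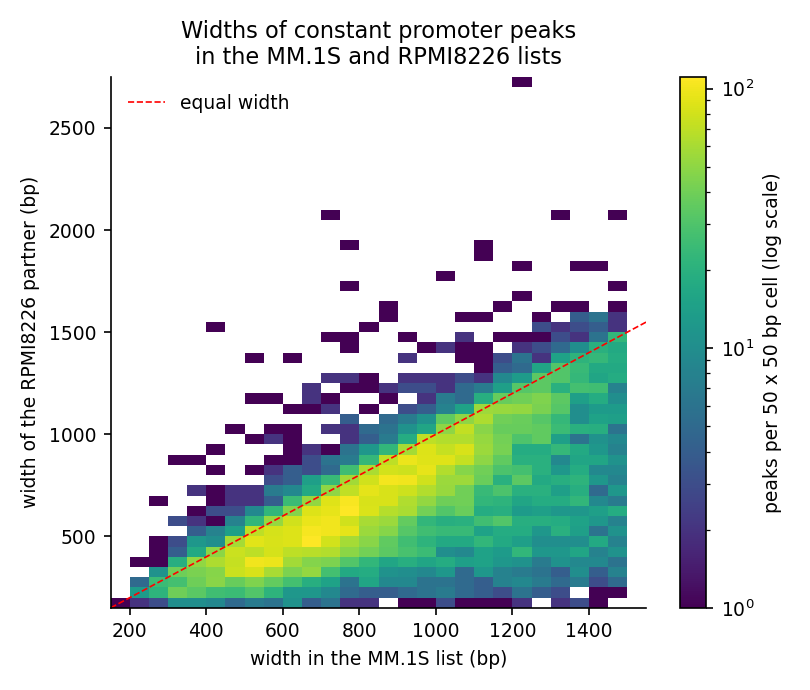
Width (bp) of each constant promoter peak in MM.1S against that of its RPMI8226 partner, as the number of peaks per cell on a log colour scale, with a dashed line at equal width. Most peaks lie under the line, where the MM.1S peak is wider, which held for 89.5%.

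The values just inside and just outside the limits of the rule were as follows. The widest constant promoter peak measured 1499 bp and the narrowest left out by the width limit measured 1500 bp. With an RPMI8226 partner called in all 5 libraries, 1095 promoter peaks were called in 8 of the 9 MM.1S libraries. They had a median width of 520 bp, a median GC of 52.8% and an island share of 13.2%. Another 1175 were called in all 9 MM.1S libraries but only overlapped RPMI8226 peaks called in 3 or 4 libraries (median GC 57.8%, island share 36.3%). A further 2667 called in all 9 had no RPMI8226 peak (60.6% and 49.8%). The smallest overlap that made a peak shared was 9 bp. The edge of the peak lay more than 2000 bp from the nearest start in 525 peaks, at most 2500 bp, and the nearest constant distal peak lay 2502 bp away.

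The extremes were as follows. The 3 widest peaks, each of 1499 bp, lay at the starts of POLG-DT, a transcript that diverges from the mitochondrial DNA polymerase gene POLG, at TNFRSF10D, a decoy receptor for TRAIL, and at UGP2, an enzyme of UDP-glucose synthesis. Among the narrowest were peaks of 200 bp near an annotated telomerase RNA entry and of 210 bp near GOLIM4, a Golgi protein. GC content was highest at the unnamed gene ENSG00000277437 (83.2%), at RBM38, an RNA-binding protein (82.6%), and at WNT4, a signalling ligand (81.9%). It was lowest at the non-coding gene LINC01781 (33.1%), at GPR171, a G protein-coupled receptor (33.3%), and at CDKL2, a kinase (34.6%).

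The genes at constant promoter peaks were mostly protein-coding. Of 19111 autosomal protein-coding genes, 10277 (53.8%, 53.1 to 54.5) had at least 1 constant promoter peak, and this 53.8% is the background against which the gene lists below are read. The share was 21.1% (20.5 to 21.7) of 18390 long non-coding RNA genes, 10.9% (10.2 to 11.7) of 6664 small RNA genes and 6.27% (5.88 to 6.68) of 13942 pseudogenes. Among immunoglobulin and T cell receptor gene segments it was 30 of 411 (7.30%, 5.16 to 10.2). When the start had to lie inside the peak, 9075 protein-coding genes (47.5%), 2556 long non-coding RNA genes (13.9%) and 155 small RNA genes (2.33%) remained.

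Counted by peak, 2243 (17.5%) had no protein-coding start within the window. For 1538 of them, which were 12% (11.4 to 12.5) of all constant promoter peaks, the window held a long non-coding RNA start, and these had a median GC of 54.3% and an island share of 27.9%. Peaks with a protein-coding start had a median GC of 62.4% and an island share of 69.7%. Of the peaks with neither, 219 had a small RNA start and 428 had a pseudogene start but no small RNA start, and their island shares were 12.8% and 12.6%. The nearest start was protein-coding at 9880 peaks (76.9%).

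Most constant promoter peaks served 1 protein-coding gene, and most of these genes had 1 such peak. The window held 1 protein-coding gene at 8747 peaks (68.1%), 2 at 1697 (13.2%), 3 at 151 (1.17%) and 4 or more at 14. In turn, 8364 genes (81.4%) had 1 constant promoter peak, 1555 (15.1%) had 2 and 275 (2.68%) had 3. The count was 6 for AMPD3, an AMP deaminase, and RGS3, a regulator of G protein signalling. It was 5 for ARHGEF2, EPS8L2 and SBF2.

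The remaining protein-coding genes fell into 5 classes. For 1555 (8.14%) the constant promoter peaks were all 1500 bp or wider, for 1519 (7.95%) there were promoter peaks in both lists but none constant, for 1530 (8.01%) there were promoter peaks only in the MM.1S list, and for 608 (3.18%) only in the RPMI8226 list. For 3622 genes (19.0%, 18.4 to 19.5) no promoter peak was found in either list.

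Base composition at the start differed between genes with a constant promoter peak and genes without a promoter peak. Over 250 bp either side of the canonical start, the main start of the gene in the annotation, the median GC was 66.7% (66.5 to 66.9) in genes with a constant promoter peak and 53% (52.5 to 53.5) in genes without a promoter peak. A CpG-rich start, with a GC content of at least 50% and a CpG ratio of at least 0.6 in this window, was found in 84.3% (83.6 to 85) of the former and 25.3% (23.9 to 26.8) of the latter. Read the other way, 66.6% (65.8 to 67.4) of the 13016 genes with a CpG-rich start had a constant promoter peak and 7.05% (6.62 to 7.50) had no promoter peak. Of the 6095 genes with a CpG-poor start, 26.4% (25.3 to 27.5) had a constant promoter peak and 44.4% (43.1 to 45.6) had no promoter peak.

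Sequence that occurs more than once in the genome was also unequal between the classes. A start was called repeated when at least 50% of the 32-base words in the same window occurred elsewhere in the genome. It was repeated in 1.13% (0.942 to 1.35) of genes with a constant promoter peak and in 12.5% (11.4 to 13.6) of those without a promoter peak. Of 691 genes with a repeated start, 16.8% (14.2 to 19.8) had a constant promoter peak and 65.4% (61.8 to 68.9) had no promoter peak. Reads that mapped to several places were left out by the authors, and the part of this in the missing peaks was not tested. With repeated starts left out, CpG-rich starts had no promoter peak in 6.56% (6.14 to 7.0) and CpG-poor starts in 41.5% (40.2 to 42.8).

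In each of the 18 lists of broadly used complexes the share with a constant promoter peak was above 53.8%, from 76.9% in translation initiation factor 3, whose interval reached down to 49.7%, to 100%. Among 75 genes of the cytosolic ribosome, which translates mRNA, 67 (89.3%, 80.3 to 94.5) had a constant promoter peak. The other 8, RPL7, RPL9, RPL12, RPL19, RPL28, RPL32, RPLP1 and RPS3, each had a constant promoter peak of 1500 bp or more. Among the 67, peak GC ran from 50.7% at RPL35A to 70.7% at RPS21. Of 78 genes of the mitochondrial ribosome, 70 (89.7%, 81.0 to 94.7) had a constant promoter peak, and MRPL14, MRPL12, MRPL39, MRPS2 and MRPS26 had a wide one. MRPL22, MRPL23 and MRPL35 had promoter peaks in both lists that were not constant. No gene of either ribosome lacked a promoter peak.

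The proteasome, which degrades tagged proteins, had 35 of 38 genes with a constant promoter peak (92.1%, 79.2 to 97.3). The wide class held PSMB10, an immunoproteasome subunit. PSMA8, a subunit known from the testis, and PSMB11, known from the thymus, had no promoter peak. Peak GC ran from 55.1% at PSMC2 to 78.5% at PSMA7.

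The same layout was seen in the machinery of gene expression. The Mediator complex, which links activators to RNA polymerase, had 28 of 30 genes (93.3%, 78.7 to 98.2), with MED28 in the wide class and MED12L among genes with other peaks in both lists. RNA polymerase subunits reached 27 of 33 gene entries (81.8%, 65.6 to 91.4), which carry 32 symbols. The other 6 entries, which included the largest subunit POLR2A, were all in the wide class. Genes of the TAF series, most of which encode TFIID subunits, reached 18 of 20, and TAF1L, a retrocopy of TAF1 known from the testis, had no promoter peak. Spliceosome genes reached 41 of 51 (80.4%, 67.5 to 89.0) with 7 more in the wide class. All 11 genes of the RNA exosome, which trims and degrades RNA, had a constant promoter peak, with a lower 95% limit of 74.1%.

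Translation and protein folding genes followed. Aminoacyl-tRNA synthetases, which charge tRNAs with amino acids, had 34 of 37 genes (91.9%, 78.7 to 97.2), and FARS2, GARS1 and YARS1 were in the wide class. Translation initiation factor 3 had 10 of 13, with EIF3A and EIF3K in the wide class. EIF3C had no promoter peak in either list, and 100% of the words around its start occurred more than once in the genome. The chaperonin and prefoldin genes, which fold new proteins, had 12 of 14, with CCT5 and CCT7 in the wide class.

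In the cell cycle and energy metabolism the counts were of the same order. DNA replication genes had 37 of 42 (88.1%, 75 to 94.8), and CDC45, MCM4, MCM7, ORC4 and ORC6 were in the wide class. All 16 genes of the anaphase-promoting complex, which marks mitotic proteins for degradation, had a constant promoter peak (lower limit 80.6%). Complex I of the respiratory chain had 33 of 35 and ATP synthase had 18 of 19. The exception in ATP synthase was ATP5MGL, without a promoter peak, whose start was repeated in 59.1% of its words. Nuclear pore genes had 18 of 22 with NUP210L, known from the testis, lacking a promoter peak. Mitochondrial import genes had 19 of 23 and the COP9 signalosome, a regulator of ubiquitin ligases, had 8 of 9.

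In these lists the constant peak usually covered the canonical start. This held for 66 of the 67 ribosomal genes, 69 of 70 mitochondrial ribosomal genes, 34 of 35 proteasome genes and all 27 RNA polymerase entries. An exception was EXOSC7, an RNA exosome subunit, whose constant promoter peak lay 35853 bp from its canonical start, at another annotated start, and had a GC of 47.9%.

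**Figure D4:**
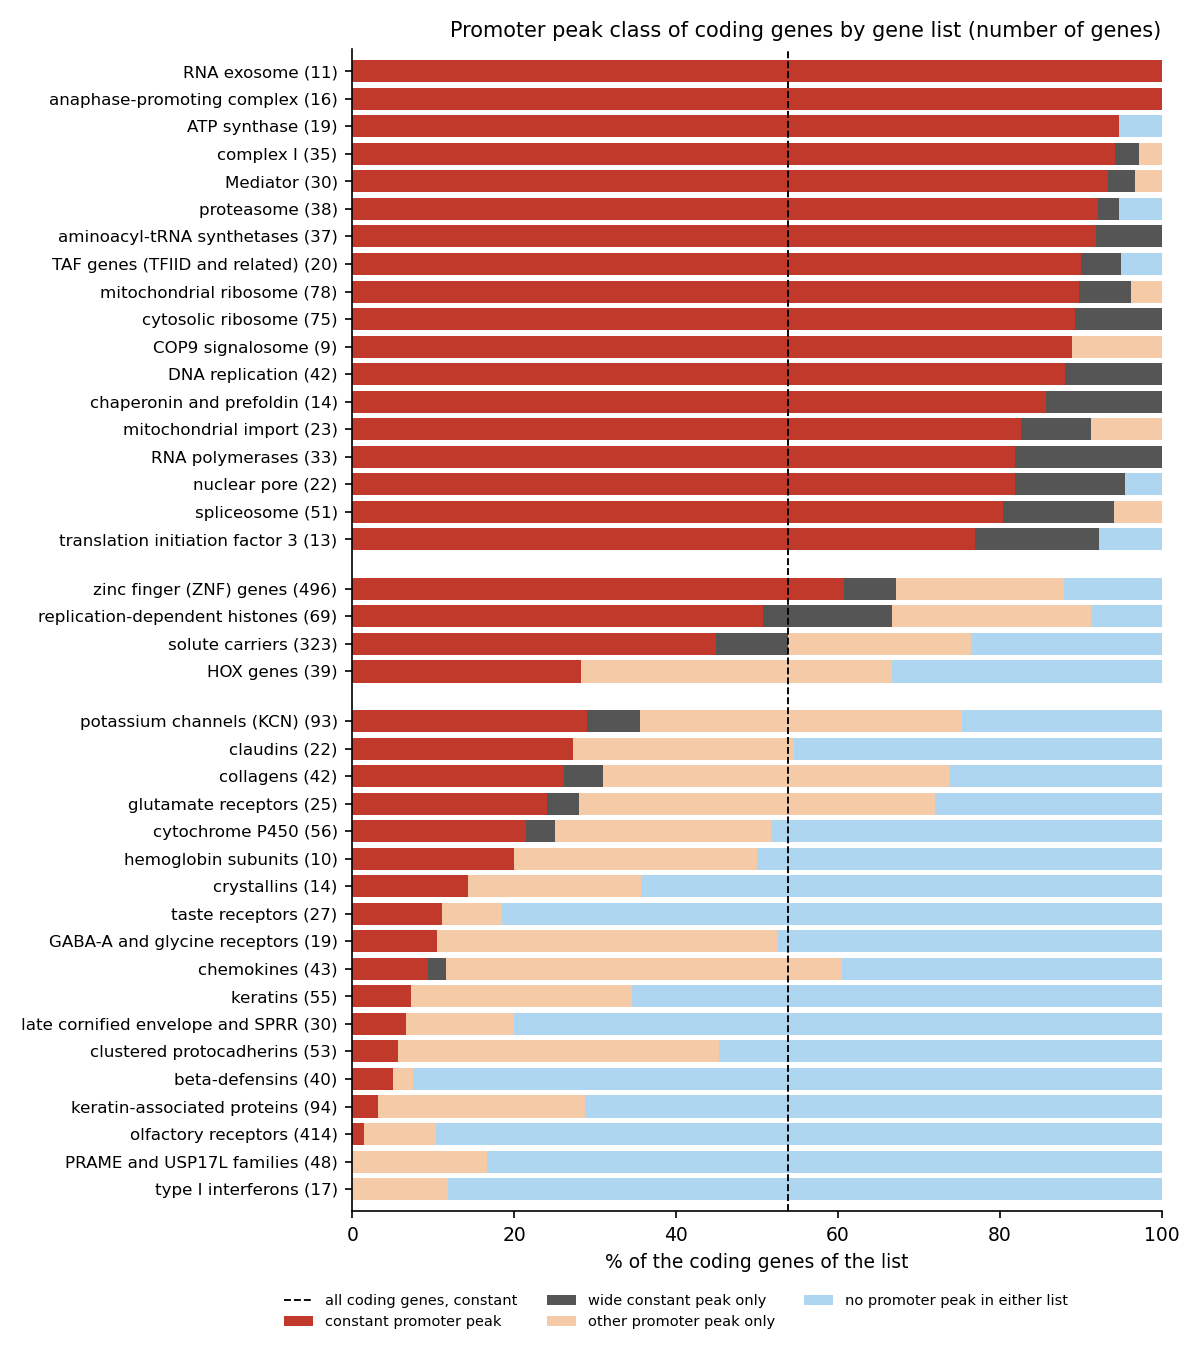
Share (%) of the protein-coding genes of each list with a constant promoter peak (red), only wide constant peaks (grey), only other promoter peaks (beige) or no promoter peak in either list (blue), with the number of genes in brackets and a dashed line at 53.8%, the share of all protein-coding genes with a constant promoter peak. The 18 lists of broadly used complexes at the top run from 76.9% to 100% and the 18 lists of restricted families at the bottom from 0% to 29%.

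Mixed families varied widely. C2H2 zinc finger genes of the ZNF series had 301 of 496 (60.7%, 56.3 to 64.9) with a constant promoter peak and 60 without a promoter peak. Solute carriers had 145 of 323 (44.9%, 39.6 to 50.3) and 76 without. Replication-dependent histone genes, which package new DNA, had 35 of 69 with a constant promoter peak, 11 more in the wide class and 6 without. HOX genes, which set position along the body axis, had 11 of 39 (28.2%, 16.5 to 43.8), and the canonical start lay inside the peak in only 2. The HOX peaks ran in GC from 55.8% near HOXC8 to 65.9% at a distant start of HOXC4.

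Genes without a promoter peak included most members of several restricted families, to be read against 19.0% of all protein-coding genes. Among 414 olfactory receptor genes, which encode odorant receptors, 371 (89.6%) had no promoter peak and 6 (1.45%, 0.666 to 3.13) had a constant one. The 6 were OR2L3, OR9A4, OR2A14, OR51D1, OR2AG2 and OR7A17, and the canonical start lay inside the peak in 1, OR51D1. Among 40 beta-defensins, antimicrobial peptides, 37 had no promoter peak, and 18 of the 40 had a repeated start. Of 17 type I interferon genes 15 had no promoter peak, and 0 of 17 had a constant one, with an upper 95% limit of 18.4%. Taste receptors lacked a promoter peak in 22 of 27, late cornified envelope and SPRR genes of the skin barrier in 24 of 30, and keratin-associated proteins in 67 of 94. In the PRAME and USP17L families 40 of 48 had none, and 44 of the 48 had a repeated start.

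Keratins, the filament proteins of epithelia, had no promoter peak in 36 of 55, and 4 had a constant one, at KRT7, KRT8, KRT18 and KRT80. KRT8 and KRT18 shared 1 peak, chr12:52952070-52952584, and in this list only the canonical start of KRT80 lay inside its peak. Clustered protocadherins, which give neurons surface identity, had 29 of 53 without a promoter peak. The 3 with a constant promoter peak were the neighbours PCDHGB1, PCDHGB2 and PCDHGB3, whose peaks of 470, 322 and 416 bp all held the canonical start.

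Families of channels, receptors and matrix proteins were less extreme. Potassium channels of the KCN series had 27 of 93 with a constant promoter peak (29%, 20.8 to 38.9) and 23 without a promoter peak. Glutamate receptors had 6 of 25 and 7 without. Cytochrome P450 genes, which oxidise steroids and drugs, had 12 of 56 and 27 without. Collagens had 11 of 42 and 11 without, claudins of tight junctions had 6 of 22 and 10 without, and chemokines had 4 of 43 (CCL1, CCL4, CCL5 and CCL25) and 17 without. In GABA-A and glycine receptors the counts were 2 of 19 and 9, in crystallins of the lens 2 of 14 and 9, and in hemoglobin subunits 2 of 10 and 5.

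Where a restricted gene did have a constant promoter peak, the peak often missed the canonical start. The canonical start lay inside the peak in 8 of the 27 potassium channel genes, 5 of the 12 cytochrome P450 genes, 1 of the 6 glutamate receptor genes and 1 of the 11 collagen genes. The peak of GRID1, a glutamate receptor of the delta type, lay 754151 bp from its canonical start, and that of TAS2R14, a bitter taste receptor, lay 232153 bp away. Over all protein-coding genes, the canonical start lay inside a constant promoter peak in 8247 (43.2%, 42.5 to 43.9), which was 58.1% (57.2 to 58.9) of genes with a CpG-rich start and 11.3% (10.5 to 12.1) of genes with a CpG-poor start.

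Marker genes of cell types were read in the same way. Of 14 plasma cell genes, 11 (78.6%, 52.4 to 92.4) had a constant promoter peak and none lacked a promoter peak. This interval took in the 53.8% of all protein-coding genes. The upper limit for genes lacking a promoter peak, 21.5%, lay above the 19.0% of all protein-coding genes. The canonical start lay inside the peak in 9 of the 11. The peak of XBP1, a factor of the secretory programme, had a GC of 68.9%, that of IRF4, a factor MM cells depend on, 67.8%, that of DERL3, a protein of the endoplasmic reticulum, 66.1%, and that of SEC11C, a signal peptidase subunit, 63.7%. SDC1, which encodes CD138, was in the wide class. JCHAIN and SLAMF7 had promoter peaks in both lists that were not constant.

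Of 14 stromal genes, 3 had a constant promoter peak and 5 lacked a promoter peak in both lists. The peaks of PDGFRB, COL1A1 and COL6A1 each missed the canonical start, by 33510 bp from the midpoint in PDGFRB, 1269 bp in COL1A1 and 365 bp in COL6A1. COL3A1, FAP, LUM, POSTN and THY1, the gene of the CD90 antigen that the sort selected against, had no promoter peak. Among 14 T and NK cell genes, 5 had a constant promoter peak (CD8A, CD28, CD247, GNLY and LCK) and 5 had no promoter peak. The constant share was 35.7% (16.3 to 61.2), an interval that took in the 53.8% of all protein-coding genes. Of the constant peaks of these 5 genes, only that of CD28 held the canonical start. The midpoint lay 76152 bp from it in CD247, 17216 bp in CD8A, 9465 bp in GNLY and 1095 bp in LCK. The constant count was 1 of 12 in myeloid genes (CD68), 1 of 12 in keratinocyte genes (SFN), 1 of 12 in germ cell genes (ZP3) and 3 of 11 in neuronal genes (GAD1, MAP2 and SLC17A7). The neuronal interval, 9.75% to 56.6%, also took in 53.8%. Among these named genes only the peak of SLC17A7 missed the canonical start, by 1841 bp from the midpoint. The constant count was 0 of 12 in both hepatocyte and muscle genes, with an upper 95% limit of 24.2%. No promoter peak was found for 9 of the 12 keratinocyte, 8 of the 12 muscle, 7 of the 12 germ cell and 6 of the 12 hepatocyte genes.

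CpG-rich starts without a promoter peak numbered 917, and 840 of them were not repeated. A further 4 families were chosen after these values had been seen and were counted over all their members, whatever the start, beside 19.0% without a promoter peak among all protein-coding genes and 7.05% among those with a CpG-rich start. Of 14 NKX homeobox genes, 10 had no promoter peak and none had a constant one, although the median GC at their starts was 64.8%. Of 18 SOX genes, 8 had no promoter peak and 4 had a constant one (SOX6, SOX12, SOX13 and SOX30). The canonical start lay inside the peak in SOX12 and SOX13, but 382011 bp from the midpoint in SOX6 and 16727 bp in SOX30. Of 48 forkhead genes, 15 had no promoter peak and 15 had a constant one, which held the canonical start in 11. Of 9 tudor domain genes, which act in the germline, 5 had no promoter peak and none had a constant one, with 2 in the wide class and a median GC of 70.9%. Of 39 HOX genes, 13 had no promoter peak.

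Genes without a promoter peak lay partly in runs along the chromosome. There were 101 runs of 5 or more neighbouring protein-coding genes without a promoter peak, which held 858 of the 3622 genes, and 23 runs of 10 or more, which held 382. The longest, of 48 genes, ran from DEFA4 to FAM90A12P on chromosome 8 and held defensin, FAM90A and USP17L genes. The next were 28 genes on chromosome 11 from OR5F1 to OR5AR1, of which 27 were olfactory receptors, and 25 keratin-associated protein genes on chromosome 21 from KRTAP13-2 to KRTAP8-1. Another 23 lay on chromosome 1 from OR2M3 to LYPD8 and 22 on chromosome 17 from KRT40 to KRTAP4-3. The run of 48 held some genes of the PRAME and USP17L list and of the beta-defensin list. Over all genes of those lists, inside and outside the run, 44 of 48 and 18 of 40 had a repeated start. Repeated starts were not counted for the run itself. The part of repeated sequence in the runs was not tested.

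Chromosomes differed in the same measures. The share of protein-coding genes with a constant promoter peak was lowest on chromosome 21 (35.9%, 29.9 to 42.4) and chromosome 4 (43.3%, 39.8 to 46.9) and highest on chromosome 16 (60.8%, 57.5 to 64.0). The share without a promoter peak was highest on chromosome 21 (29.1%, 23.5 to 35.4) and chromosome 11 (27.9%, 25.6 to 30.4) and lowest on chromosome 22 (14.1%, 11.2 to 17.6). Constant promoter peaks were densest on chromosome 19, with 15.1 per Mb, and sparsest on chromosome 13, with 1.96 per Mb.

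Motif words differed between genes with a constant promoter peak and genes without a promoter peak. They were sought on both strands from 250 bases before to 50 bases after the canonical start of all 19111 genes. The ETS word CCGGAAG was present at 14.2% of all starts, at 21.2% (20.4 to 22) of those with a constant promoter peak and at 2.84% (2.35 to 3.44) of those without a promoter peak. Of the 2712 genes that carried it, 80.2% had a constant promoter peak. The NRF1 word GCGCATGC was present at 4.20% of all starts, 6.05% (5.61 to 6.53) and 0.607% (0.401 to 0.918). The YY1 word AAGATGGC was present at 4.05%, 5.94% (5.50 to 6.41) and 1.10% (0.812 to 1.5). Each of the 3 words was more common in the genes with a constant promoter peak on 22 of 22 autosomes.

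The remaining words differed in size and direction. The GC box GGGCGG was present at 61.7% of all starts, 72.6% with a constant promoter peak and 28.1% without a promoter peak. The CREB/ATF word TGACGTCA stood at 2.72%, 3.42% and 0.911%, the ZBTB33 word CTCGCGAG at 1.47%, 2.00% and 0.221%, the ZNF143 word ACTACAATT at 0.460%, 0.730% and 0.110%, and the E-box CACGTG at 8.69%, 10.3% and 5.60%. The CCAAT box shares had overlapping intervals, with 35.7%, 37.2% (36.3 to 38.1) and 37.7% (36.1 to 39.2). The TATA box TATAAA was rarer with a constant promoter peak, at 9.74%, 5.22% (4.80 to 5.66) and 22.6% (21.3 to 24.0), and so was the AP-1 word TGANTCA, at 5.37%, 4.02% and 9.22%. These last 2 were more common with a constant promoter peak on 0 of 22 autosomes.

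Several of these words hold a CpG, so the shares were also taken among CpG-rich starts only. There the ETS word was present at 24.0% (23.1 to 24.9) of the 8667 starts with a constant promoter peak and 6.98% (5.50 to 8.81) of the 917 without a promoter peak. The NRF1 word was present at 6.99% (6.47 to 7.55) and 1.42% (0.830 to 2.41), and the YY1 word at 6.62% (6.12 to 7.17) and 0.981% (0.517 to 1.85). The ETS and YY1 words were more common with a constant promoter peak on 22 of 22 autosomes and the NRF1 word on 21. The GC box shares were nearer each other, at 79.9% (79.0 to 80.7) and 74.0% (71.1 to 76.8), with the higher share in the constant group on 15 of 22. The CCAAT box, with overlapping intervals over all genes, was here more common with a constant promoter peak, at 37.2% (36.2 to 38.2) against 31.6% (28.7 to 34.7), on 18 of 22. TATAAA was present at 3.6% (3.23 to 4.01) and 8.72% (7.07 to 10.7). The AP-1 word had overlapping intervals, at 2.88% (2.55 to 3.26) and 3.82% (2.76 to 5.26). A match is a description of the letters and does not show that a factor is bound.

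**Figure D5:**
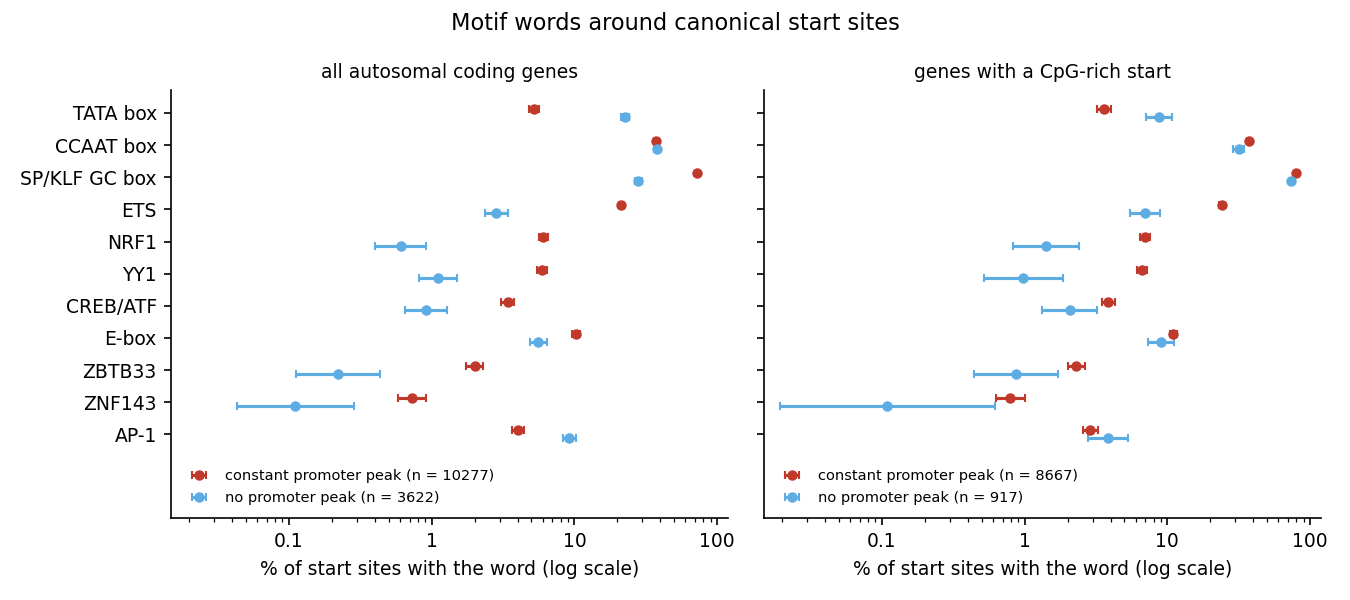
Percentage of canonical starts (log scale) with each motif word, for genes with a constant promoter peak (red) and genes without a promoter peak (blue), with 95% Wilson intervals, over all protein-coding genes (left) and those with a CpG-rich start (right). Among CpG-rich starts the ETS, NRF1 and YY1 words remain apart, at 24.0% against 6.98% for ETS, while the GC box shares come near each other at 79.9% and 74.0%.

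The central 200 bp of the peaks gave a related picture within the constant promoter peaks. In the 9680 that held a start, the ETS word was present in 11.4% (10.8 to 12.1) and the GC box in 54.0%. In the 3172 that held none, the shares were 2.40% (1.92 to 2.99) and 16.7%, closer to the 1.81% and 8.83% of constant distal peaks. The AP-1 word ran the other way, with 3.46% (3.11 to 3.84) in peaks that held a start, 12.1% (11.0 to 13.3) in those that held none and 14.6% (14.0 to 15.3) in constant distal peaks. In other promoter peaks that held a start the ETS word was present in 4.62% (4.04 to 5.27) and the GC box in 38.2%, both below the constant promoter peaks that held one.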

How the data were processed

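Omni-ATAC was carried out in 14 libraries of MM.1S and RPMI8226 (3, 3 and 3, and 1, 2 and 2, for MONO, TSW and CO), grouped by their titles. Per the published methods, the authors used Bowtie2 to align reads to hg38, left out reads with several positions, kept 1 read per position, called peaks with MACS3 and listed those present in at least 3 samples. The deposited lists give positions and an unnamed score, a whole number from 3 to 9 in MM.1S and 3 to 5 in RPMI8226, read here as the number of libraries with the peak. How peak edges were joined is not given in the sources used here. The lists hold no reads or per-library values, so no test between conditions or lines was made. The depth per library that the study states was not used here, and precision rests on numbers of peaks and genes.

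GENCODE release 44 gave the start sites of all transcripts, in place of the RefSeq annotation of the study. Positions are 1-based on hg38. GC, CpG, motif words and repeated 32-base words were computed from the hg38 sequence with Python 3.11.15, NumPy 2.4.6, pandas 2.3.3, SciPy 1.17.1, pysam 0.24.0 and numba 0.67.0, and the functions were tested on simulated data. Printed promoters came from the RefSeq table, in which 14622 of 19111 autosomal protein-coding genes (76.5%) matched by symbol. Shares have 95% Wilson intervals. The members, gene lists, markers and words were chosen with earlier results of these data known. Genes of a broad complex without a constant promoter peak, and genes of a restricted list with one, were named where there were 8 or fewer, together with the highest and lowest peak GC and the extremes of width and GC. A few genes under this rule are not reported here. Genes without a promoter peak within marker lists, runs and other single genes set apart by distance were named after their values were seen. Alternatives were other start sites, windows, overlap, support, width limits and a central window of 200 bp.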

Additional observations from a re-analysis of the deposited data

Results flagged for a closer look

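Chromosome X lies outside the chromosomes compared above, and it also held peaks of this kind. There, 362 promoter peaks met the other criteria, and the list gives no value for a single library. Of 859 protein-coding genes on chromosome X, 326 (38.0%) had such a peak and 334 (38.9%) had no promoter peak in either list. Among autosomal protein-coding genes these shares were 53.8% and 19.0%.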

How the results depend on the processing

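No paired analysis was possible because the lists hold no value for a single library, and for the same reason no library could be left out in turn. Of 63 values recomputed under other settings, 42 shares, medians and differences moved by more than the interval of the reported value. Counts of peaks and genes stayed within 1.5 times the reported counts, and median GC stayed above that of other promoter peaks in each setting.

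With basic transcripts only, 79.9% of constant promoter peaks had a coding start, median GC was 61.9% (5.21 points above other promoter peaks), 68.1% met island criteria, 22.6% had divergent starts and median width was 933 bp. With protein-coding transcripts only, every peak has a coding start by construction, and from median GC on the values were 63.0%, 3.25 points, 76.0%, 11.0% and 968 bp. A window of 1000 bp gave 85.4%, 62.3%, 4.43 points, 69.9%, 25.2% and 945 bp, in the order of the first setting, and one of 5000 bp gave 80.1%, 59.8%, 6.61 points, 53.8%, 22.8% and 861 bp. With an overlap of at least 50% of both peaks, the coding share was 83.2%, the island share 62.9%, the divergent share 24.8% and the width 885 bp. With support of at least 8 and 4 libraries, the values were 80.3%, 60.3%, 4.81 points, 55.6%, 21.6% and 855 bp. Without a width limit they were 83.9%, 61.8%, 6.36 points, 64.5%, 25.7% and 963 bp. In the central 200 bp, median GC was 64.5%, the difference 9.0 points and the island share 60.6%. Each setting changes which peaks or bases are counted. An alternative chosen after seeing the data, with the canonical start inside the peak and no window, gave 8247 genes with a constant promoter peak.

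Within the limits of the lists, a missing peak can mean closed chromatin, too few unique reads or a call in fewer than 3 libraries, and these cannot be told apart. The annotation decides which peaks count as promoters.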

Other observations

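Small RNA genes met constant promoter peaks at unequal rates. The share was 15.9% of 893 snoRNA genes, 14.9% of 1759 miRNA genes, 12.5% of 48 scaRNA genes and 7.0% of 1800 snRNA genes. For small RNA genes as a whole, the start lay inside the peak in 2.33% against 10.9% within the window.

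Of the 3622 genes without a promoter peak, 999 (27.6%) belonged to 1 of the gene or marker lists and 371 (10.2%) were olfactory receptors, so most were in no list.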
